A study of Homo sapiens with 3 samples.

Results

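Nuclear genes of respiratory complexes II to V were followed in an RNA immunoprecipitation, as 40 genes of the 57820 listed in the deposited tables. The 40 are the 4 subunits of complex II, 9 of complex III, the electron carrier cytochrome c, 10 of complex IV, 15 of complex V and the ATP synthase inhibitor ATPIF1. They were chosen by name, with the older ATP5 symbols that the files use, and all 40 names were found, on 42 rows. SDHD and UQCR11 each have 2 rows with different Ensembl identifiers, and the rows were kept apart. The precipitates came from ACHN cells, a long-established line of human renal cell carcinoma, which stably expressed Flag-tagged MEX3A, an RNA-binding protein, and were cross-linked with 0.3% formaldehyde. The labels give 1 anti-Flag precipitate, 1 IgG precipitate and 1 input RNA, all from cells with the MEX3A-Flag transgene. The labels do not say whether the line is 1 clone or what drives the transgene. The Flag and IgG libraries were compared, and the input sample was not analysed here. No ratio below is therefore a ratio to the RNA level of the cells. For the level of an RNA within 1 library, fewer copies in the cells cannot be told apart from less of it carried into that precipitate.

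The respiratory chain passes electrons from reduced cofactors to oxygen in the inner mitochondrial membrane and uses the energy to pump protons, and ATP synthase, complex V, lets the protons back to make ATP. Complex II oxidizes succinate, complex III passes electrons from ubiquinol to cytochrome c, and complex IV reduces oxygen. Most subunits are made from short nuclear mRNAs on cytosolic or outer-membrane ribosomes and imported, and a few subunits of complexes III, IV and V are encoded by the mitochondrial genome. Inherited loss of succinate dehydrogenase genes predisposes to a form of renal carcinoma. MEX3A belongs to a family of KH-domain proteins that bind mRNA.

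Total counts were 5498124 with Flag and 3412864 with IgG. Mitochondrially encoded RNAs took 33.0% of Flag counts and 8.93% of IgG counts. MEX3A itself had 103 Flag counts and 5 IgG counts. Of 14 renal epithelial and renal carcinoma markers, 12 were detected in both libraries, with up to 2532 Flag and 1557 IgG counts, and CA9 was at 0 in both. Of 7 markers of blood, liver, endothelium, glia and muscle that the files list, 6 were at 0 in both libraries, and GFAP had 17 Flag and 7 IgG counts.

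Values are CPM, the authors' expected counts per gene, rounded and scaled to a library total of 1000000, and the ratio is Flag CPM over IgG CPM. Each ratio has an exact 95% Clopper-Pearson interval that covers counting error only. A gene with at least 20 counts over both libraries was called enriched where the whole interval exceeded 2, and depleted where all of it was under 0.5. With 1 library per group there is no replicate check and no p-value, and a call compares these libraries. Across all genes 28.7% of the 10811 that entered were enriched and 1.32% depleted, and the median gene had a ratio of 1.93 (log2 0.95). Because the position of 1 depends on which RNAs fill each library, each ratio is also read against that median, which no scaling of the totals can change. An interval wholly above the median gene was found for 30.1% of genes and one wholly below it for 30.4%.

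Of the 42 rows, 40 entered, for 39 of the 40 genes. UQCR10, with 6 Flag and 8 IgG counts, and a second SDHD row with 0 counts in both did not. ATP5H, CYCS, ATP5G3 and UQCRB were enriched (4 of 40, or 10%), COX5A and CYC1 were depleted (5%), and 34 rows were neither. The median log2 ratio of the 40 rows was -0.038, against 0.95 for all genes. Against the median gene, 24 of the 40 (60%) had an interval wholly below it and 5 (12.5%) one wholly above it, against the 30.4% and 30.1% of all genes. The members' share was larger than that of all genes on the low side and smaller on the high side, and no test of the list was run.

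The position of the list changed with the count filter. Of the 40 rows, 22 had under 100 counts over both libraries. Among the 18 with at least 100 counts the median log2 ratio was 0.86, against 1.04 for all 5982 genes with that many. Of those 18, 8 lay wholly below and 3 wholly above the median gene of the 5982, and the shares of all 5982 genes were 37.0% and 36.4%. The filter acts on the sum of both libraries, of which Flag is the larger, so rows high in Flag pass more readily. Since passing depends on the ratio, the filter cannot show what weak counting does to the median. With TMM scaling, which lowers every log2 ratio by 0.78, 2 of the 40 rows were enriched and 10 depleted, against 12% and 6.12% of all genes. ATP5H and CYCS stayed enriched and COX5A and CYC1 stayed depleted with TMM scaling, while UQCRB (1.996) and ATP5G3 (2.49) lost their calls.

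**Figure D1:**
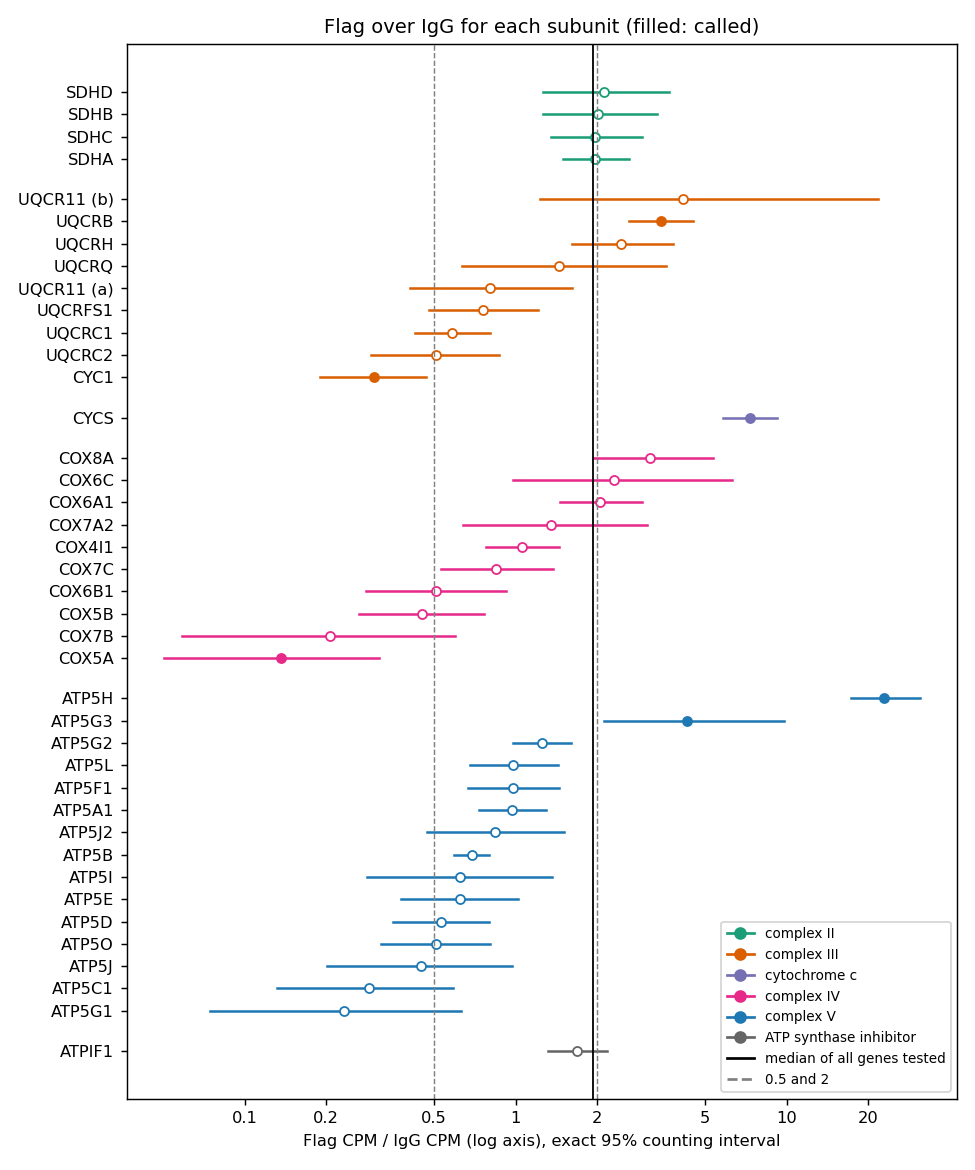
Each point is 1 gene row's Flag over IgG ratio of CPM on a log axis, with its exact 95% counting interval, grouped by complex and sorted within it; filled points are called, the dashed lines are the thresholds of 0.5 and 2, the solid line is the median gene at 1.93, and UQCR11 (a) and (b) are its rows ENSG00000127540 and ENSG00000267059. The 4 complex II points stand close to the solid line, and 13 of 15 complex V intervals lie wholly to its left, with ATP5H at 22.9 far to its right.

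Complex II stood at the median gene with all its members. SDHA, the flavoprotein that binds succinate, had 218 Flag counts (39.6 CPM) and 69 IgG counts (20.2 CPM), a ratio of 1.96 (1.49 to 2.61). SDHB, the iron-sulfur subunit, had 78 and 24 counts, a ratio of 2.02 (1.26 to 3.33). SDHC and SDHD, which anchor the enzyme in the membrane and bind ubiquinone, had ratios of 1.96 (1.35 to 2.92) and 2.11 (1.27 to 3.67). SDHC had 117 Flag and 37 IgG counts, and SDHD had 68 and 20. All 4 intervals lay above 1, all 4 spanned the median gene, and none was called, since each also spanned the threshold of 2. The narrow spread of the 4 ratios, 1.96 to 2.11, is smaller than any of their counting intervals. Summed, complex II had 87.5 Flag CPM and 44.0 IgG CPM, a ratio of 1.99 (1.65 to 2.41). The SDHA pseudogenes SDHAP1, SDHAP2 and SDHAP3 had 23 Flag and 14 IgG counts together, and SDHA summed with them had a ratio of 1.80 (1.4 to 2.34).

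A feature shared by some of these genes that their choice did not use is a motif of nuclear respiratory factor 1 (NRF-1), a transcription factor known for its sites before respiratory chain genes. The motif GCGCANGCGC was searched on both strands in the 250 bases before each start site of the RefSeq promoter table (GRCh38.p14). Of 32 members with a window there, 8 (25%) held it, namely SDHA, SDHD, UQCRC1, UQCRFS1, UQCR11, ATP5C1, ATP5I and ATP5O. Of all 27305 genes with a window, 6.20% held it. A stretch of 175 bases of the SDHA window (chr5:218145-218319, plus strand) is shown because it holds 4 matches evenly spaced 49 bases apart, and only 12 of the 35116 windows held 4 or more. A stretch of 40 bases of the SDHD window (chr11:112086748-112086787, plus strand) is shown beside it for a single match, 110 bases before the start. Capitals mark the matches.
SDHA: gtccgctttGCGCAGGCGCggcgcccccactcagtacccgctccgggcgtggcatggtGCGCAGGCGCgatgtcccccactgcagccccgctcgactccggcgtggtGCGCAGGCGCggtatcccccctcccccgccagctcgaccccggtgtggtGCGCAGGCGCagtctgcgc
SDHD: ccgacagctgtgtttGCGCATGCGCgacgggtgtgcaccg
The median log2 ratio, with both UQCR11 rows averaged, was -0.54 for the 8 members with a match and -0.028 for those without one that entered. The motif describes promoter DNA, which the precipitation of RNA did not measure.

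In complex III the electron-carrying subunits and core proteins had ratios below 1, and the small subunits had ratios on both sides of it. The small subunit UQCR10, which did not enter, had a ratio of 0.466 (0.133 to 1.53). CYC1, cytochrome c1, which hands electrons to cytochrome c, had 31 Flag counts (5.64 CPM) and 64 IgG counts (18.8 CPM) and was depleted, 3.33-fold lower in the Flag library (2.13 to 5.28). UQCRFS1, the Rieske iron-sulfur protein, had 44 and 36 counts, a ratio of 0.759 (0.477 to 1.21). The core proteins UQCRC1, with 79 and 84 counts, and UQCRC2, with 27 and 33, had ratios of 0.584 (0.424 to 0.803) and 0.508 (0.294 to 0.871). All 4 intervals lay below the median gene. CYC1 lost its call when protein-coding genes alone made up the totals (ratio 0.397) and with a 99% interval.

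UQCRB, a small subunit at the ubiquinone-binding site, had 364 Flag counts (66.2 CPM) and 66 IgG counts (19.3 CPM) and was enriched, with a ratio of 3.42 (2.63 to 4.52). UQCRH, the hinge protein between cytochromes c1 and c, had 114 and 29 counts, a ratio of 2.44 (1.61 to 3.81), and UQCRQ had 21 and 9 counts, a ratio of 1.45 (0.636 to 3.59). The 2 rows of UQCR11 parted. ENSG00000127540 had 22 Flag and 17 IgG counts (0.803, 0.407 to 1.61) and ENSG00000267059 had 20 and 3 (4.14, 1.23 to 21.7). Both have fractional expected counts, and with which genes those reads were shared was not tested. Their sum of 42 and 20 counts had a ratio of 1.30 (0.748 to 2.34). UQCRB alone supplied 364 of the 728 Flag counts of complex III. The summed ratio was 1.29 (1.14 to 1.48) with it and 0.798 (0.682 to 0.936) without it.

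CYCS, cytochrome c, which shuttles electrons between complexes III and IV and triggers caspase activation when released, was the second most abundant of the 40 genes by Flag counts. It had 998 Flag counts (181.5 CPM) and 85 IgG counts (24.9 CPM), a ratio of 7.29 (5.84 to 9.21). Its partner in complex III, CYC1, was depleted, so the mRNAs of these neighbouring electron carriers lay on opposite sides of 1. With the authors' TPM, the deposited abundance per unit of effective length, CYCS had 116 Flag TPM and 28.9 IgG TPM, a ratio of 4.00. The listed length of CYCS, the authors' abundance-weighted mean over transcripts and not the effective length itself, was 1737 bases with Flag and 1043 with IgG. The pseudogene CYCSP34 had 0 Flag counts and 1 IgG count.

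Complex IV had 5 ratios above 1 and 5 below it, a median log2 ratio of -0.079 and a summed ratio of 1.09 (0.945 to 1.26). Across all genes 2374 of 10811 had a ratio below 1, and 7 of the 10 complex IV ratios were below the median gene. COX5A, a nuclear subunit on the matrix side, had 7 Flag counts (1.27 CPM) and 32 IgG counts (9.38 CPM) and was depleted, 7.36-fold lower in the Flag library (3.19 to 19.8). It kept its call with every alternative of scaling, unit and interval, and lost it with a 4-fold threshold and where at least 100 counts were asked, since it has 39. COX7B had 5 and 15 counts, a ratio of 0.207 (0.0588 to 0.599), and the zinc-binding subunit COX5B had 27 and 37, a ratio of 0.453 (0.265 to 0.764). COX7B and COX5B were not called on total counts and were depleted with TMM scaling.

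At the other end, COX8A, a small membrane subunit, had 101 Flag counts and 20 IgG counts and a ratio of 3.13 (1.93 to 5.35). Its lower bound missed the threshold of 2 and lay barely above the median gene. COX6C had 26 and 7 counts, a ratio of 2.31 (0.975 to 6.29), and COX6A1, the widely expressed isoform of its subunit, 145 and 44 counts, a ratio of 2.05 (1.45 to 2.94). COX4I1, the regulatory subunit that is early to assemble, had 116 and 68 counts, a ratio of 1.06 (0.778 to 1.45). Between these stood COX7A2 (1.35), COX7C (0.846) and COX6B1 (0.510), the last with an interval of 0.281 to 0.918. COX4I1, COX5A, COX5B, COX6B1, COX7B and COX7C had intervals wholly below the median gene.

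**Figure D2:**
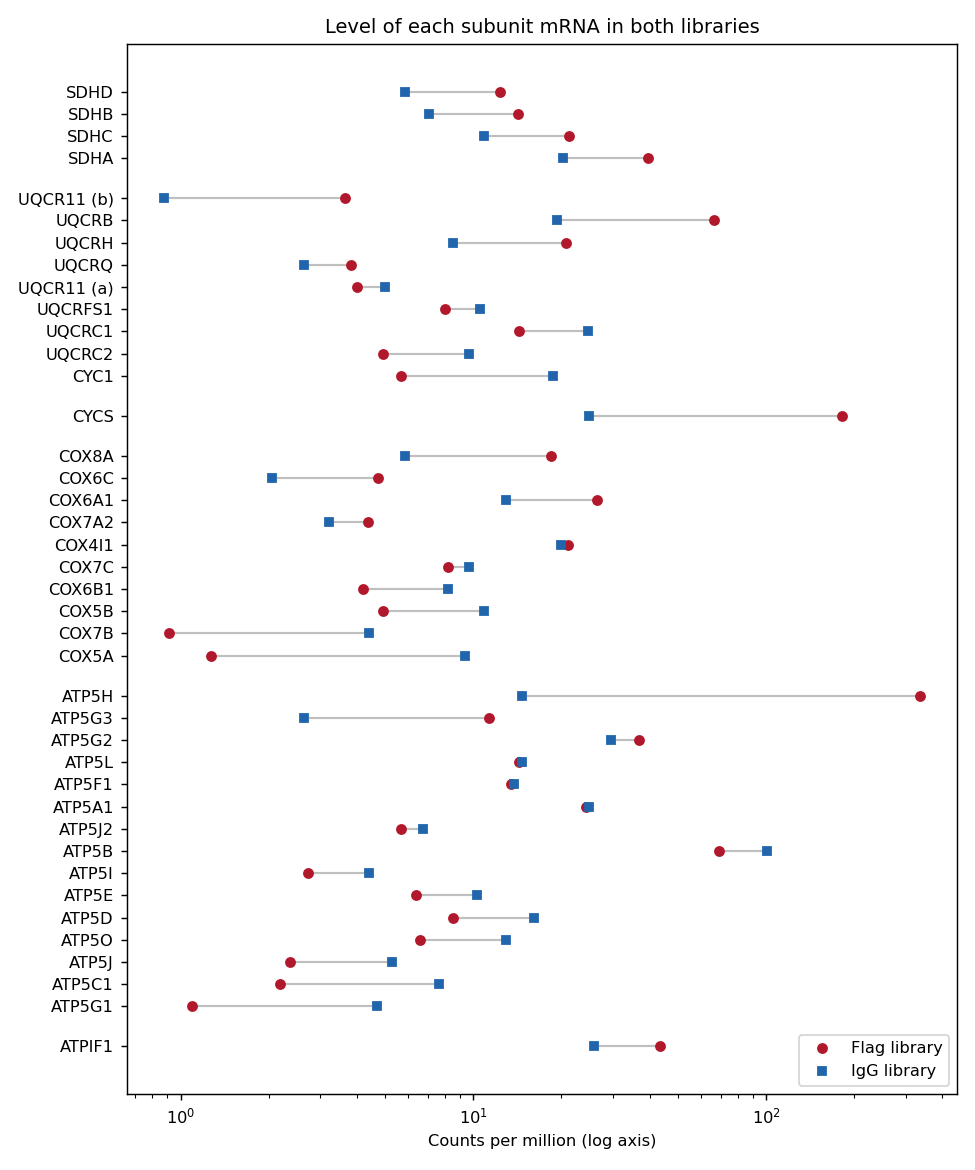
CPM of each gene row on a log axis in the Flag library (circles) and the IgG library (squares), joined by a line, in the order of the plot of ratios. ATP5H has 334.8 Flag CPM and 14.7 IgG CPM, and CYCS 181.5 Flag CPM and 24.9 IgG CPM, while COX5A has 1.27 Flag CPM and 9.38 IgG CPM.

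By counts complex V had the lowest median of the 4 complexes, at a log2 ratio of -0.54, and it also held the highest ratio of all members. By TPM, with a pseudocount of 0.1, the median of complex III was lower, at -0.40, against -0.30 for complex V. Of the 15 genes of complex V, 12 had ratios below 1, against 2374 of the 10811 genes that entered. Of the 15, 13 had intervals wholly below the median gene, and the other 2, ATP5H and ATP5G3, had intervals wholly above it. None of the 5 genes of the F1 head and central stalk had a ratio above 1. The catalytic beta subunit gene ATP5B, the most abundant member by counts in the IgG library, had 381 Flag counts (69.3 CPM) and 343 IgG counts (100.5 CPM), a ratio of 0.690 (0.594 to 0.80). BAZ2A, which overlaps ATP5B by RefSeq positions, had 1826 Flag and 507 IgG counts (2.24, 2.03 to 2.47). The expected counts of both genes were whole. ATP5A1, the alpha subunit, had 133 and 85 counts, a ratio of 0.971 (0.734 to 1.29). The gamma subunit gene ATP5C1, the rotating shaft, had 12 and 26 counts, a ratio of 0.286 (0.132 to 0.588), ATP5D 47 and 55 (0.530, 0.352 to 0.797), and ATP5E 35 and 35 (0.621, 0.377 to 1.02). Summed, the 5 had 110.6 Flag CPM and 159.4 IgG CPM, a ratio of 0.694 (0.617 to 0.780).

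The c ring, the membrane rotor, is made of a single mature protein that 3 genes encode with different import sequences, and the 3 mRNAs had 3 different positions. ATP5G3 had 62 Flag counts (11.3 CPM) and 9 IgG counts (2.64 CPM) and was enriched, with a ratio of 4.28 (2.11 to 9.79). ATP5G2, the most abundant of the 3 in both libraries, had 203 and 101 counts, a ratio of 1.25 (0.978 to 1.60). ATP5G1 had 6 and 16 counts, a ratio of 0.233 (0.0746 to 0.626). The intervals of ATP5G1, ATP5G2 and ATP5G3 did not overlap one another. The sum of the 3 had a ratio of 1.34 (1.08 to 1.66). ATP5G3 lost its call with TMM, median-of-ratios and reduced-total scaling (ratios of 2.49, 2.47 and 3.63) and with a 99% interval.

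The peripheral stalk, which holds the head still against the rotor, had 1 gene far from the rest. ATP5H, subunit d, had 1841 Flag counts (334.8 CPM) and 50 IgG counts (14.7 CPM), a ratio of 22.9 (17.3 to 30.9). Its stalk partners did not share this. ATP5F1, subunit b, had 74 and 47 counts (0.977, 0.669 to 1.44), ATP5J, subunit F6, 13 and 18 (0.448, 0.202 to 0.968), and ATP5O, the protein that joins the stalk to the head, 36 and 44 (0.508, 0.318 to 0.807). ATP5H alone made up 31% of all Flag counts of the members and 2.65% of their IgG counts. Without it the summed ratio of complex V was 0.807 (0.738 to 0.883), against 2.01 (1.87 to 2.17) with it. On these totals, the side of 1 on which the sum lay rests on this 1 gene. Against the median gene of 1.93, the sum with ATP5H spanned it and the sum without ATP5H lay below it.

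Per length the ATP5H ratio was much the same, with 791 Flag TPM and 34.0 IgG TPM, a ratio of 23.2, at lengths of 605 and 617 bases. Its Flag count was fractional in the files (1841.13), as a gene-level RSEM count can be where a read matches more than 1 gene. By RefSeq positions, the pseudogene RN7SL573P and KCTD2 overlap ATP5H. RN7SL573P had 4 Flag counts and 0 IgG counts, and its Flag count before rounding was fractional too, at 3.87. KCTD2 had whole counts of 75 with Flag and 57 with IgG, a ratio of 0.817 (0.571 to 1.17). Whether reads of other RNAs with ATP5H sequence add to the count was not tested.

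The small membrane subunits of complex V had ratios near or below 1. ATP5L, subunit g, had 79 and 50 counts (0.981, 0.680 to 1.43), ATP5J2, subunit f, 31 and 23 (0.837, 0.472 to 1.5), and ATP5I, subunit e, 15 and 15 (0.621, 0.283 to 1.36). The readthrough gene ATP5J2-PTCD1 had 52 Flag and 3 IgG counts, and ATP5J2 summed with it had a ratio of 1.98 (1.26 to 3.21). The sum spanned the median gene, while ATP5J2 alone lay below it. GABPA, which overlaps ATP5J, had 97 Flag and 6 IgG counts. Before rounding, the IgG counts were 17.88 for ATP5J and 6.12 for GABPA, and the Flag counts of both were whole. The strand setting is not stated, and how well reads of overlapping genes were told apart was not tested. ATPIF1, which blocks ATP hydrolysis by complex V when the proton gradient fails, had 239 Flag counts (43.5 CPM) and 88 IgG counts (25.8 CPM), a ratio of 1.69 (1.32 to 2.18) that spanned the median gene.

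By TPM, which allows genes to be compared per length, the order of levels differed between the libraries. In the Flag library ATP5H led with 791 TPM, followed by ATPIF1 (131), CYCS (116), UQCRB (82.7) and ATP5G2 (75.8). In the IgG library ATPIF1 led with 80.1 TPM, followed by ATP5B (69.1), ATP5G2 (61.3), COX4I1 (37.4) and ATP5H (34.0). The highest complex V subunit stood 52.5 times above the complex's median TPM in the Flag library and 3.30 times above it in the IgG library. Without ATP5H the Flag value was 5.10, with ATP5G2 highest.

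The TPM moved several calls. The members' median log2 ratio by TPM was 0.033, against 0.79 for all genes, with a pseudocount of 0.1. By fold alone, with no interval, 12 of the 40 rows were above 2 and 11 below 0.5, against 44.2% and 6.59% of all genes. Of these, 6 were the genes called on counts, and 17 were not called on counts, of which 8 were above 2 and 9 below 0.5. SDHC, SDHD, UQCRH, UQCRQ, COX6A1, COX6C, COX8A and UQCR11 (ENSG00000267059) were the 8 above 2. Of these, SDHC (2.90 by TPM and 1.96 by counts) and UQCRQ (2.53 and 1.45) moved most. UQCRC1, UQCRC2, COX5B, COX7B, ATP5C1, ATP5D, ATP5G1, ATP5J and UQCR11 (ENSG00000127540) were the 9 below 0.5.

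ATP5G1 moved furthest, with 0.68 Flag TPM and 11.6 IgG TPM, a ratio of 0.0667, against 0.233 by counts. Its length in the files was 1786 bases with Flag and 591 with IgG, from 6 and 16 counts. Length was over 1.5 times greater in the Flag library for 4 rows (CYCS, ATP5G1, ATP5G3 and ENSG00000127540 of UQCR11) and in the IgG library for 1 (UQCRQ). These lengths are set by how reads of each gene were shared among its transcripts, and isoforms were not tested. Across the 40 rows the log2 ratios by counts and by TPM had a Pearson's r of 0.951, a description over genes that share both libraries.

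**Figure D3:**
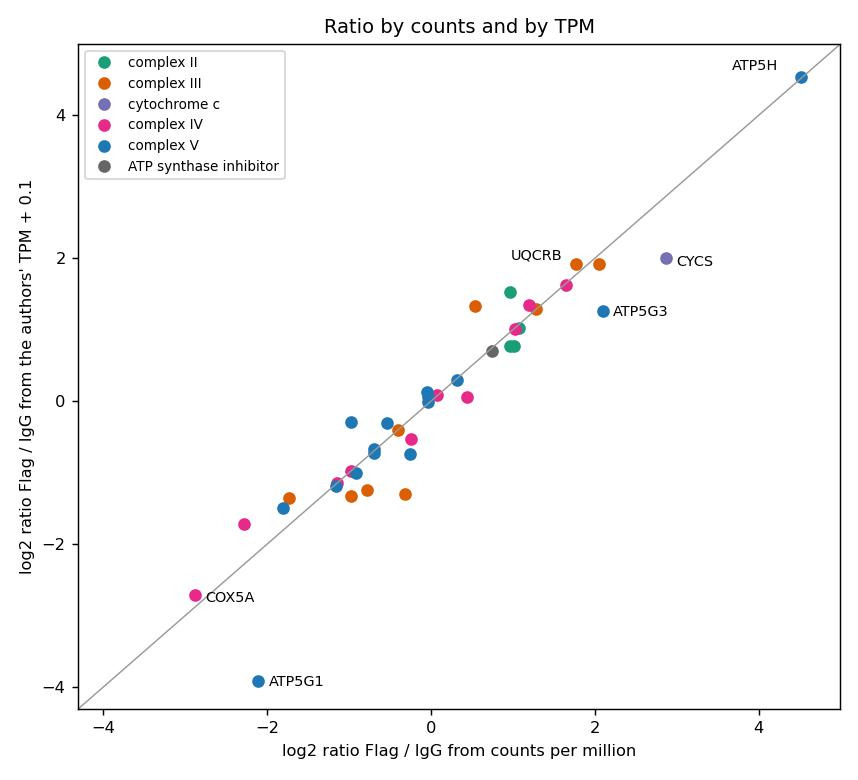
Each point is 1 gene row, with its log2 ratio of Flag to IgG from CPM on the x axis and from the authors' TPM plus 0.1 on the y axis, coloured by complex, and a line of equality. ATP5H lies on the line, CYCS and ATP5G3 lie below it, and ATP5G1 lies furthest below it.

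Members were short, with a median length of 818 bases over the 40 rows, against 2013 bases for the protein-coding genes that entered. The ratio moved with length across the table, since protein-coding genes of up to 1000 bases had a median log2 ratio of 0.48 (n = 1163) and longer ones 0.99 (n = 9030). The 25 member rows of up to 1000 bases had a median of -0.24 and the 15 longer ones 0.97. In finer steps the members lay on both sides of protein-coding genes. Their median was -0.26 (n = 3) against -0.42 up to 500 bases, and 0.43 (n = 14) against 0.25 up to 750. It was -0.95 (n = 8) against 0.62 up to 1000, and 1.05 (n = 10) against 0.68 up to 1500. Up to 2000 it was -0.22 (n = 4) against 0.84, and 1 row of 3000 to 5000 bases had -0.69 against 1.29. The part of length in the members' position was not tested. Within the 40 rows Spearman's rho of the log2 ratio with length was -0.030, a description with no p over genes of the same libraries.

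Related genes were described by the same calls, to be read against the 28.7% of all genes enriched and the 1.32% depleted. Of 34 entered rows of complex I subunits, which feed the chain with electrons from NADH, 10 (29.4%) were enriched and 0 depleted, with a median log2 ratio of 0.61. NDUFB3, with 347 Flag and 18 IgG counts (12.0, 7.46 to 20.4), was the highest of those detected in both libraries, and NDUFB5, with 48 Flag counts and 0 IgG counts, was at least 9.93-fold higher against a floor of 3 IgG counts, with an exact lower bound of 7.77. NDUFA8 (0.349, 0.136 to 0.839) and NDUFA13 (0.381, 0.227 to 0.629) were the lowest. Of 28 entered assembly factors of complexes II to V and cytochrome c, which build the complexes without staying in them, 11 (39.3%) were enriched and 0 depleted, with a median of 1.23. C6orf57, a factor for complex II with 112 Flag counts and 1 IgG count, had a ratio of 69.5 (12.2 to 2770). LYRM7, which acts on the Rieske protein, had 245 and 3 counts, a ratio of 50.7 (17.1 to 247.5). BCS1L, which also acts on the Rieske protein, with 16 and 20 counts (0.497, 0.241 to 1.01), and COA3, for complex IV, with 15 and 13 (0.716, 0.318 to 1.64), were the lowest. PET117 had 20 Flag counts and 0 IgG counts, so it was at least 4.14-fold higher against the same floor, with an exact lower bound of 3.06.

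Citric acid cycle enzymes had 3 of 13 (23.1%) enriched and 0 depleted, with a median of 0.26. SUCLG2 (3.46) and DLD (3.10) were the highest and IDH3G (0.384) and IDH3B (0.604) the lowest. Of 5 entered accessory or isoform genes outside the 40, none was called, between NDUFA4 (0.260, 0.125 to 0.512) and ATP5SL (2.06, 1.26 to 3.49). The difference between these lists and the 40 genes was not tested. In the assembly list 3 of 28 intervals lay wholly below the median gene, in complex I 13 of 34, and among the 40 rows 24.

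The mitochondrially encoded subunits of the same complexes had ratios from 1.12 (MT-CO2) to 9.90 (MT-ATP8), and 2 of the 6 were enriched, MT-ATP6 (2.83) and MT-ATP8. The other 4 had intervals wholly below the median gene, and the median log2 ratio of the 6 was 0.48, against 0.95 for all genes. Those 6 RNAs summed to 7514 Flag CPM and 4782 IgG CPM, and the 40 nuclear genes to 1079 Flag CPM and 552.0 IgG CPM.

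**Figure D4:**
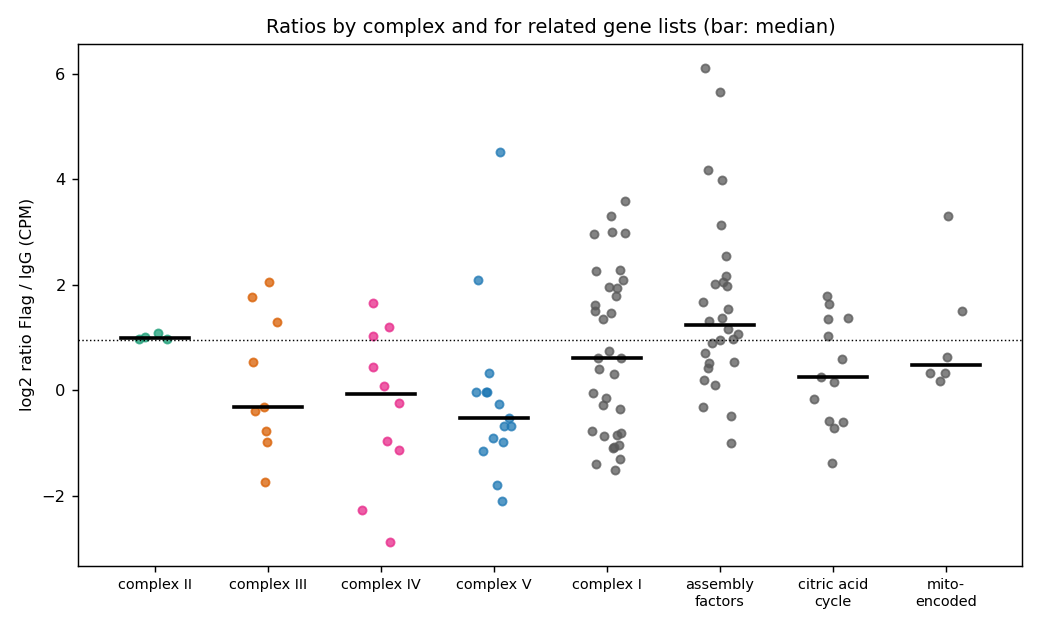
Each point is the log2 Flag over IgG ratio of CPM of 1 gene row that entered, for complexes II to V, complex I, assembly factors, citric acid cycle enzymes and mitochondrially encoded subunits of complexes III to V; bars are medians, the dotted line is the median gene at 0.95, and genes with 0 IgG counts are placed at a floor of 3 counts. By these counts the median of complex V is lowest at -0.54 and that of the assembly factors highest at 1.23.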

How the data were processed

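RNA immunoprecipitation libraries of MEX3A-Flag and IgG precipitates, 1 each, were compared. Expected counts were made by the authors in an RSEM gene-level layout, per the file headers, and are estimated counts of reads, not normalized. The deposited TPM and FPKM were scaled by effective length, per the file headers. Per the submitters' processing notes, STAR and RSEM were used, with GRCh37 and hg19 as genome builds. The sources used here give no tool version, annotation release, filter or strand setting. Counts were rounded, CPM computed over library totals (a count of 0 allows up to 3 counts, or 0.546 Flag CPM and 0.879 IgG CPM), and intervals computed with scipy 1.17.1 over all genes. PCR reads are not independent molecules, so intervals cover counting error only. The interval code was tested on simulated data. TMM (edgeR 4.0.16) and median-of-ratios (DESeq2 1.42.0) factors were taken over all genes. The genes and lists were chosen with earlier results of these data known. All 40 genes are accounted for; full values are given for called genes, the ends of each complex, the most abundant, CYCS, ATPIF1 and the ATP5G genes. RefSeq names and promoters are of GRCh38.p14, another build, so gene coordinates from the files are not given; a member with no window there was not searched.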

Additional observations from a re-analysis of the deposited data

How the results depend on the processing

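The calls, medians and member ratios were recomputed under 15 alternatives, except where a filter left a member out. No direction of a called gene turned under those that gave it a value. Related lists, promoters and TPM ranges were not recomputed. Enriched and depleted members numbered 4 and 2 on total counts, 2 and 10 under TMM scaling and also under median-of-ratios scaling, 10 and 10 with TPM at a pseudocount of 1, 12 and 11 with TPM or FPKM at 0.1, and 2 and 0 with a fold of 4. Depleted members were 0 of 18 rows with at least 100 counts and 1 of 40 with protein-coding totals. The shares of all genes in those settings were 1.62% and 0.736%. Of 40 rows, 1 was depleted with a 99% interval and 5 with a fold of 1.5, against 1.06% and 2.76% of all genes. The members' median log2 ratio was -0.82 by TMM and -0.83 by median-of-ratios factors, which shift all genes alike, and 0.86 with at least 100 counts. With TMM, median-of-ratios and at least 100 counts, complex IV had medians of -0.86, -0.87 and 1.03 and complex V -1.31, -1.33 and -0.033. Complex II had 0.21 and 0.20 with the first pair, and complex III 1.29 with at least 100 counts, a filter that removes 22 of 40 rows. It leaves only UQCRB, UQCRC1 and UQCRH of complex III, and only COX4I1, COX6A1 and COX8A of complex IV. Rows high in Flag pass it more readily. Complex V also had -0.77 with totals that leave out mitochondrial RNAs and the 10 most abundant genes, -0.29 and -0.30 with TPM at pseudocounts of 1 and 0.1, -0.30 with FPKM and -0.13 with protein-coding totals. Complex III had lower medians than complex V in those units, -0.35 and -0.40 with TPM and -0.40 with FPKM. Over all genes the enriched and depleted counts were 3100 and 143, against 1293 and 662 with TMM and 924 and 24 with a fold of 4. The shares of all genes were 37.7% and 4.96% with TPM at a pseudocount of 1, and 44.2% and 6.59% with TPM and 44.2% and 6.6% with FPKM at 0.1. The number of members wholly below the median gene was 24 of 40 with each count-based scaling. The share of all genes was 30.4%, and with protein-coding totals it was 30.5% of protein-coding genes. With whole counts only, which leave out ATP5H, it was 20 of 34 members, against 29.8% of all genes. With no filter it was 20 of 41 members, against 15.4% of all genes, and the median gene then had a ratio of 1.45. No leave-one-out or paired analysis was possible because each group has 1 library. Depth limits members with few counts: ATP5G1, COX5A and COX7B rest on under 10 Flag counts each.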
